A study of Mus musculus with 2 samples.

Results

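The 37 genes described here are genes of the germline that mammalian somatic cells keep silent. They are set among the 21887 protein-coding genes of the RefSeq gene table of GRCm38.p6 (mm10). The members were chosen by name, with earlier results of these data known. They comprise 12 genes of meiosis, 12 genes of the piRNA pathway and 13 other germ cell genes. A listed region was assigned to a gene when it overlapped the annotated span widened by 5 kb on both sides, and to a gene end when it came within 1 kb of it. The regions come from MBD-seq, in which the MBD2 protein captures methylated DNA before sequencing, of primary chondrocytes from knee cartilage of C57BL/6 mice at postnatal day 3. One library came from Uhrf1 cKO cells, in which Uhrf1 was conditionally deleted, and one from Control cells, and both cultures had received rhBMP-2 at 100 ng/ml for 24 hours. The sources used here do not give the promoter that drives the deletion, the number of animals or their sex. The labelled cell type could not be checked against markers, because the data hold no expression values.

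Germ cells need these genes for chromosome pairing, for recombination and for the small piRNAs that keep transposons silent. In somatic tissues many of their promoters carry methylated CpG, although promoters of similar CpG content elsewhere in the genome are mostly unmethylated, and loss of the maintenance methyltransferase Dnmt1 is known to release several of them. Uhrf1 brings Dnmt1 to hemimethylated DNA after replication. A variant Polycomb complex that contains the proteins E2F6 and MGA is also known to silence many of these promoters, through E2F sites and E-boxes.

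The deposited list holds 35861 regions with less signal in Uhrf1 cKO than in Control, and regions of the opposite direction were not analysed here. Kept tags numbered 15039206 for Uhrf1 cKO (76.1% of all tags) and 9782276 for Control (44.8%). Each region carries a count of Control tags but no cKO count. Its fold, Control over Uhrf1 cKO, and its FDR, the percentage of regions as strong that appear with the libraries swapped, are the authors' own values. A large fold thus stands for less captured DNA in Uhrf1 cKO. With 1 library per genotype no difference has a replicate check, and no p-value was computed. The targeted gene, Uhrf1, held 5 regions with folds of 7.32 to 24.59 within its span. Tag intervals are exact 95% Poisson intervals and cover counting error only.

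Regions with less captured DNA in Uhrf1 cKO were found at the starts of 8 members. RefSeq promoter entries gave a strand for 33 members, and the 8 (24.2%) had a region within 1 kb of the start, against 3.78% of 17492 protein-coding genes with a strand. At the far end of the gene, 0 of the 33 had a region, against 6.35% of those genes. The 8 were Sycp1 and Smc1b among the meiosis genes, Asz1, Tdrd9 and Piwil4 in the piRNA pathway, and Dazl, Tex14 and Dpep3 among the others. The start regions of Smc1b, Tdrd9 and Piwil4 had an FDR over 5%, 100% for Piwil4. Those of Smc1b and Tex14 also lay at an end of a neighbouring gene. Near the genes as a whole, members stood less apart: 21 of 37 (56.8%) had a region in the span or within 5 kb, against 47.4% of all protein-coding genes. The members are long, with a median span of 38.9 kb against 17.2 kb, and protein-coding genes weighted to the members' 10 length classes had a region in 57.2% of cases. The same weighting left the share at starts at 3.94%. These shares are descriptions and were not tested. Because the members were chosen with earlier results of these data known, their share at starts cannot be read as an independent result. Only DNA captured from Control can appear in the list, so the absence of a region does not tell a gene unmethylated in Control from one captured alike in both libraries.

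**Figure D1:**
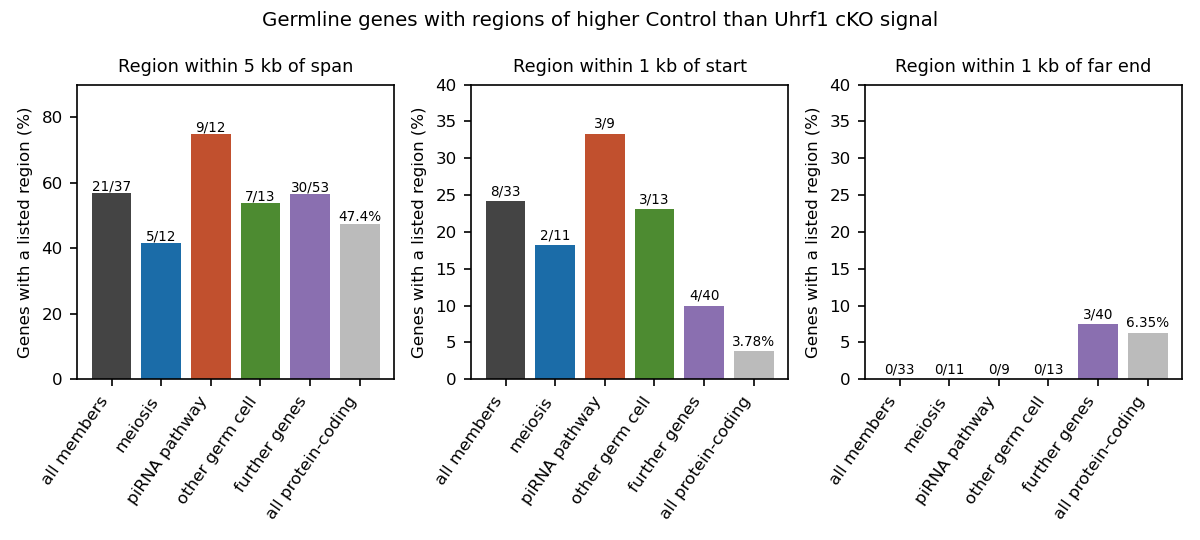
Bars give the percentage of genes with a listed region within 5 kb of the span (left), within 1 kb of the start (middle) and within 1 kb of the far end (right), for all members, the 3 member groups, further genes of the same pathways and all protein-coding genes, with counts above the bars. With regions of any FDR counted, members reach 24.2% at starts against 3.78% for all protein-coding genes, and 0 of 33 members have a region at the far end.

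Shown are the promoter sequences of 5 members whose listed region reached into the 300 bp window around a RefSeq start. The window runs from 250 bases before the start to 50 after. The region covered some windows wholly and others only in part, so not every base shown lay in a region. The windows of Sycp3 and Hormad1 follow, members of the same kind with no region within 5 kb. All are RefSeq sequences of GRCm38.p6 on the strand of the gene, with each CpG in capitals.
Asz1: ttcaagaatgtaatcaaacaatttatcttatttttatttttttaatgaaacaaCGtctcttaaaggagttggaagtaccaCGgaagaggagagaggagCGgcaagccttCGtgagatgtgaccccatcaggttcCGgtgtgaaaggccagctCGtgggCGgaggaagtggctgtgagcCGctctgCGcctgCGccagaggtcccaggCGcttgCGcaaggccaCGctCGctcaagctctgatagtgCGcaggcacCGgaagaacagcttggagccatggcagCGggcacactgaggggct
Smc1b: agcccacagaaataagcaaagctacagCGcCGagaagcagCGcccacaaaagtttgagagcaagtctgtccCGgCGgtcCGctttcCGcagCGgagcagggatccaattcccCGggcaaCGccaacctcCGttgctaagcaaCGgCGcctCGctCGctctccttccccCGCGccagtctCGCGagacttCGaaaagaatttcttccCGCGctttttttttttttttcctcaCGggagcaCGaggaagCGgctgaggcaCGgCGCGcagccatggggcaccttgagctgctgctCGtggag
Dpep3: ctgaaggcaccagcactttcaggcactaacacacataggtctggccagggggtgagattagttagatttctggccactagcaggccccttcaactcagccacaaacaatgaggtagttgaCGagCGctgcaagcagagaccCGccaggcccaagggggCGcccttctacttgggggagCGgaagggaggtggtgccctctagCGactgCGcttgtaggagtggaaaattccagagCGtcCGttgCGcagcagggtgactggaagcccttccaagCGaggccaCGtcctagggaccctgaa
Tdrd9: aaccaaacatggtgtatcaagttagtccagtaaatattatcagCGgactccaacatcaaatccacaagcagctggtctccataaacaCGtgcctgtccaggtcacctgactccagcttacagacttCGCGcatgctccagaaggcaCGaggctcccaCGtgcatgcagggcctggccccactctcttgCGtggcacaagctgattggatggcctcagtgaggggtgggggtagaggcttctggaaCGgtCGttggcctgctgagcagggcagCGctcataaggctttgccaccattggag
Stag3: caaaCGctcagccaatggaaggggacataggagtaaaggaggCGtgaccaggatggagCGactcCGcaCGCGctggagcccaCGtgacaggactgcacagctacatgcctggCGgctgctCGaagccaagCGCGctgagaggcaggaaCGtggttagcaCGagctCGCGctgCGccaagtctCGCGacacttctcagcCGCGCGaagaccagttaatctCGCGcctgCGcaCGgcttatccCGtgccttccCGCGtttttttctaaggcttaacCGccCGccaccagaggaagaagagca
Sycp3: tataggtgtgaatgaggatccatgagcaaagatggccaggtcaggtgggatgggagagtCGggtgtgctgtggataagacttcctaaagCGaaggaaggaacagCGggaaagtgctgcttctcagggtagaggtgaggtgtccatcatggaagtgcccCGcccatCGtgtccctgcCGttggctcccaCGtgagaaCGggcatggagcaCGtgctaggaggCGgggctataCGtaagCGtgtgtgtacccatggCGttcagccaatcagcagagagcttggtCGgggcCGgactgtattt
Hormad1: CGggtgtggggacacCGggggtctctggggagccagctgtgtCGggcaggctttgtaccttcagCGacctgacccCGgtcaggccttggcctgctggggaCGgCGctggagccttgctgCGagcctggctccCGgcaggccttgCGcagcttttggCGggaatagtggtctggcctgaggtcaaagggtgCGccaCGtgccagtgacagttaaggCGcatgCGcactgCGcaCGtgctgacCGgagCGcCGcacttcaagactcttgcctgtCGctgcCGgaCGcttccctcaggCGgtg

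In the Asz1 window at chr6:18109012-18109311 (minus strand), the region covered the 67 bases farthest upstream. Of the Smc1b window at chr15:85131908-85132207 (minus strand) it covered 273 bases, and of the Tdrd9 window at chr12:111971309-111971608 (plus strand) 37 bases. The windows of Dpep3 at chr8:105979370-105979669 (minus strand) and of Stag3 at chr5:138280259-138280558 (plus strand) lay wholly inside a region. The windows without a region were those of Sycp3 at chr10:88459337-88459636 and Hormad1 at chr3:95559427-95559726, both on the plus strand. Over their full 300 bp, covered by a region or not, the 5 windows with a region held 10 to 30 CpG. Those of Sycp3 and Hormad1 held 15 and 24. In all, 6 of 33 members (18.2%) had a region reaching into a listed promoter window, the sixth being Piwil4, against 0.955% of protein-coding genes with a strand. These shares count regions of any FDR, and those of Smc1b, Tdrd9 and Piwil4 had an FDR over 5%. The regions of Smc1b and Stag3 also lay at an end of a neighbouring gene.

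Among the meiosis genes, 5 of 12 (41.7%) had a region within 5 kb, and 62.3% was the share for protein-coding genes of the same lengths. Sycp1 encodes the transverse filament of the synaptonemal complex, which zips paired chromosomes together. Its start region at chr3:102935223-102935887 lay 213 bp inside the gene and held 388 Control tags (350 to 429), with a fold of 3.36 and an FDR of 1.93%. That tag count stood at percentile 98.6 of all listed regions, and the fold at percentile 0.106. Sycp1 held a further region with 404 tags at 5.23-fold and one with 55 tags at 35.29-fold, both deep in the gene. Smc1b encodes a cohesin subunit of meiotic chromosomes, and its region at chr15:85131935-85132377 covered the start, with 152 tags (129 to 178), a fold of 5.73 and an FDR of 6.92%. That region also overlapped the neighbouring gene Ribc2, so it cannot be assigned to Smc1b alone.

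Stag3, another meiotic cohesin subunit, had its single region at chr5:138280230-138280838, with 342 tags (307 to 380), 4.72-fold and an FDR of 0%. The annotated span begins 7995 bp upstream of the RefSeq start of Stag3, so this region counted as lying within the gene although it covered that start. It also lay within 1 kb of an end of Gpc2, a neighbouring glypican gene. When any start in the promoter entries was used in place of the span boundary, 9 of 33 members (27.3%) had a start region, against 3.98% of protein-coding genes with a strand. Mei1, needed to form the DNA breaks of recombination, held 3 regions, of 319 tags at 14.23-fold, 270 tags at 31.86-fold and 14 tags at 17.04-fold. The first lay 1487 bp inside the span, just beyond the 1 kb limit. The RefSeq start of Mei1, however, lies 12402 bp inside the span, and this region was 10305 bp from it. Nearest to that start, at 1184 bp, was the region of 14 tags, with an FDR of 100%. Hormad2, a protein of unsynapsed chromosome axes, had a single region of 81 tags at 6.27-fold with an FDR of 27.93%, far from both ends.

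The meiosis genes without a region within 5 kb were Sycp2 and Sycp3 of the axial elements, Syce1 and Syce3 of the central element, Hormad1, Meioc, a regulator of entry into meiotic prophase, and Tex15, which acts in break repair and in piRNA-directed silencing. Their nearest regions lay 5.57 kb (Syce3), 6.25 kb (Meioc), 9.35 kb (Sycp3), 12 kb (Tex15), 22.1 kb (Hormad1), 24.4 kb (Syce1) and 159 kb (Sycp2) away. Within the synaptonemal complex, Sycp1 had a start region, whereas the other 4 of its genes on the list had none within 5 kb.

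In the piRNA pathway, 9 of 12 genes (75%) had a region within 5 kb, against 66.5% for protein-coding genes of the same lengths. With regions over an FDR of 5% left out the order turned, to 5 of 12 (41.7%) against 51.0% for genes of the same lengths. Asz1, a scaffold protein on germ cell mitochondria, had a region at chr6:18109245-18109698, 184 bp upstream of its start, with 176 tags (151 to 204), 11.28-fold and an FDR of 0%. Tdrd9, a Tudor domain helicase, had one at chr12:111971572-111971898 beginning 84 bp inside the gene, with 39 tags (27.7 to 53.3), 30.34-fold and an FDR of 9.23%. Piwil4, the nuclear Piwi protein that guides DNA methylation to transposons in fetal male germ cells, had a region of 121 bp over its start with 12 tags (6.20 to 21.0). Its fold of 36.25 rests on this small count and its FDR was 100%. The region with the largest fold within 5 kb of any member, 37.37, lay 2298 bp upstream of Mov10l1, a helicase that processes piRNA precursors, and held 79 tags. Mov10l1 had 6 regions, the most of any member. Both of its upstream regions overlapped the neighbouring gene Mlc1, and 3 of the 4 within its span had an FDR of 100%.

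The other Tudor domain genes of the pathway, whose proteins bind Piwi proteins, also had regions within 5 kb. So did 66.5% of protein-coding genes of the same lengths as the piRNA group. Tdrd1 had a single region of 278 tags (246 to 313) at 12.55-fold, 2252 bp inside the gene. Tdrd5 had 2 regions, of 86 tags at 12.49-fold (FDR 8.28%) and 52 tags at 10.61-fold (FDR 42.56%). Tdrd6 and Rnf17 have no strand in the entries used, so a start could not be told from a far end. Tdrd6 had a region 259 bp inside an end, with 103 tags (84.1 to 125), 8.55-fold and an FDR of 5.27%. Rnf17 had a region across an end, with 183 tags (157 to 212), 7.94-fold and an FDR of 0.79%, and another 1210 bp outside the same end with 100 tags at 10.65-fold. Piwil2, a cytoplasmic Piwi protein, had a region of 310 tags at 8.26-fold within its span, 8295 bp from the nearer end. No region lay within 5 kb of Mael (8.22 kb to the nearest), the Vasa helicase gene Ddx4 (12.5 kb) or Piwil1 (25.9 kb). Counting either end, 5 of 12 piRNA genes, 2 of 12 meiosis genes and 3 of 13 other germ cell genes had a region, in all 10 of 37 (27.0%) against 9.64% of all protein-coding genes. With so few genes per group, these counts do not order the groups.

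Of the other germ cell genes, 7 of 13 (53.8%) had a region within 5 kb, against 44.0% for protein-coding genes of the same lengths. Dpep3, a dipeptidase of testis, had the start region with the highest score of all members, at chr8:105979050-105979801, with 255 tags (225 to 288), 12.49-fold and an FDR of 0%. Dazl, an RNA-binding regulator of translation in germ cells, had a region at chr17:50294216-50294554, 596 bp upstream of its start, with 93 tags (75.1 to 114), 13.98-fold and an FDR of 0.03%. Tex14, needed for the bridges between germ cells, had one at chr11:87405471-87405993, 458 bp inside the gene, with 215 tags (187 to 246), 6.93-fold and an FDR of 0.02%. The Tex14 start region also lay within 1 kb of an end of Rad51c, a DNA repair gene, so it cannot be assigned to Tex14 alone. Tex14 had 4 more regions, of 30 to 190 tags, and the one with 190 tags (13.06-fold) had an FDR of 0%.

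Stk31, a kinase-like Tudor domain gene, had a single region in mid-gene with 186 tags at 13.24-fold. The bromodomain gene Brdt had one with 211 tags at 9.09-fold, 4611 bp from its far end. Ddx25, a helicase of spermatids, had one with 100 tags at 9.64-fold, which began 1107 bp inside the gene and so just missed the start window, and another with 38 tags and an FDR of 100%. Zfp42, a zinc finger gene of pluripotent cells, had a single region of 55 tags at 7.45-fold with an FDR of 100%. The surface protein gene Tex101 (25.9 kb to the nearest region), Tex19.1 (20.2 kb), Tex19.2 (6.83 kb), the ADP/ATP carrier gene Slc25a31 (55.4 kb), the transcription factor gene Sohlh2 (61.3 kb) and the ribosomal protein retrogene Rpl10l (32.9 kb) had none within 5 kb. In all 16 members lacked a region, with a median distance of 21.1 kb to the nearest.

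**Figure D2:**
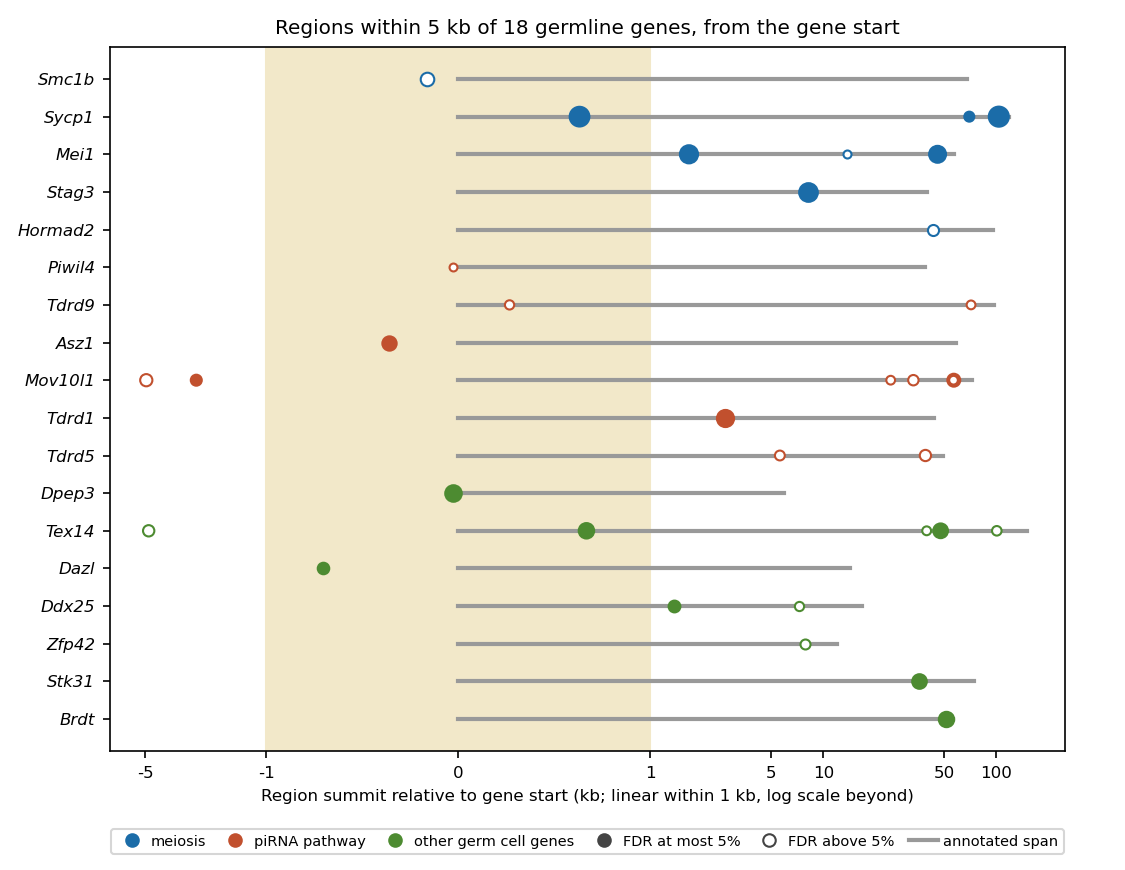
Each row is a member that has both a strand and a region within 5 kb, grouped by function, and the horizontal axis gives the summit's distance from the gene start in kb, linear within 1 kb and logarithmic beyond. Circle size grows with the Control tags, filled circles have an FDR of at most 5%, and the shaded band, which marks 1 kb on both sides of the start, holds the summits of 8 genes.

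Most of the 38 regions of the members lay within the gene spans, which are long (median 38.9 kb against 17.2 kb for all protein-coding genes). The same share for regions near all protein-coding genes was not computed. There were 24 within a span and more than 1 kb from its boundaries, including the Stag3 region over its RefSeq start. A further 8 lay at a start, 3 farther upstream and none at a known far end, and the remaining 3 belonged to Rnf17 and Tdrd6. The summits at starts lay between 702 bp upstream and 667 bp downstream, 5 of them upstream and 3 downstream. An FDR of at most 5% was given to 20 of the 38 regions (52.6%), against 56.9% of all listed regions. A fold of at least 10 was given to 20 of the 38 (52.6%), against 64.6% of all listed regions. The 9 regions of meiosis genes, from 5 genes, had medians of 270 tags and 6.27-fold, but ranged from 14 to 404 tags and from 3.36-fold to 35.29-fold, with a fold of at least 10 in 4 of them. The 17 regions of piRNA genes had medians of 86 tags and 10.88-fold, and the 12 of other germ cell genes 96.5 tags and 9.37-fold. The medians of all listed regions were 103 tags and 12.18-fold. These medians were not tested, and regions of the same gene are not independent.

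At the starts, the tag counts and folds of member regions lay within the range of other genes. The 8 member regions had a median of 164 tags and 11.9-fold, against 121 tags and 10.82-fold for the 652 regions at starts of all protein-coding genes with a strand. An FDR of at most 5% was given to 5 of the 8 (62.5%) and to 60.3% of the 652. Among the members, the start regions with the fewest tags, those of Piwil4 and Tdrd9, had the largest folds, and Sycp1, with the most tags, had the smallest. The list has a p limit of 1e-10, so a region of few tags enters it only with a large fold. That order therefore cannot be read as a trait of the members. Once regions over an FDR of 5% were left out, Sycp1, Asz1, Dazl, Tex14 and Dpep3 kept a start region (15.2% of 33), against 2.3% of protein-coding genes with a strand. Within 5 kb, 14 of 37 members (37.8%) had such a region, against 35.1% of all protein-coding genes and 43.1% for genes of the same lengths. Without regions shared with an end of another protein-coding gene, 6 of 33 members (18.2%) had a start region, against 3.21%.

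**Figure D3:**
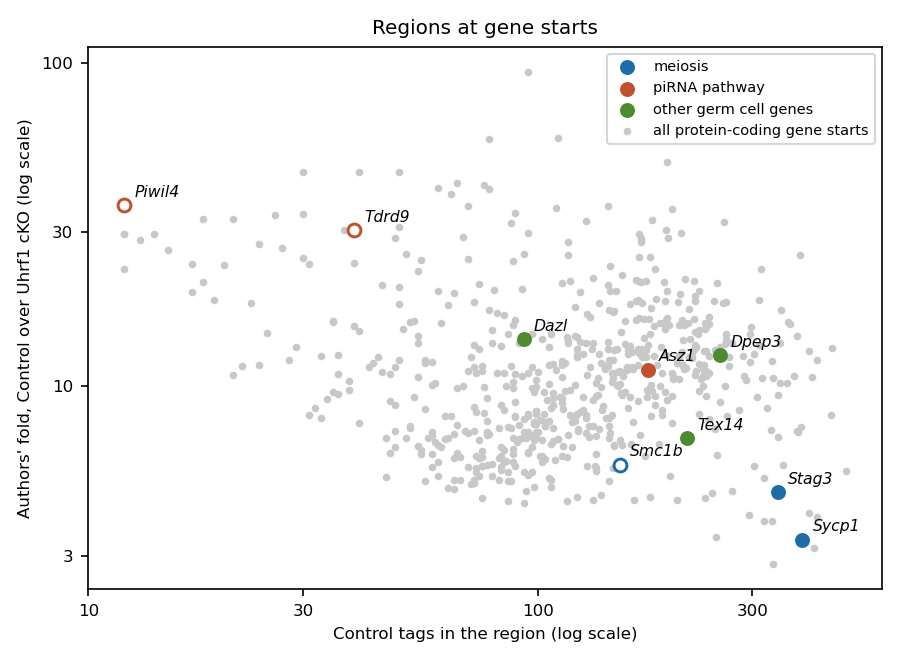
Control tags (horizontal, log scale) are plotted against the authors' fold, Control over Uhrf1 cKO (vertical, log scale), for the start regions of 8 members and the region over the RefSeq start of Stag3, with all 652 regions at protein-coding gene starts in grey. Filled circles have an FDR of at most 5%, and the member points run from Piwil4 (12 tags, 36.25-fold) to Sycp1 (388 tags, 3.36-fold).

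The start regions of members lay at promoters of 10 to 29 CpG, a range that holds 26 of the 33 members. In the CpG classes of that range the members' share was above that of all protein-coding genes. That difference was not tested, and the classes were chosen after the data were seen. The 8 members with a start region had 10 (Tdrd9) to 29 (Smc1b) CpG in the promoter window, and the 25 others with a strand had 2 (Tex19.2) to 48 (Tdrd5). The medians were 18.5 and 19, against 13 for all protein-coding genes with a strand. Among promoters of 10 to 19 CpG, 4 of 14 members had a start region, against 5.52% of protein-coding genes, and among those of 20 to 29 CpG, 4 of 12, against 4.14%. None of the 4 members with 30 or more CpG (Stag3, Ddx4, Ddx25 and Tdrd5) had a region within 1 kb of the span boundary, against 2.29% of protein-coding genes. The region of Stag3 nevertheless covered its RefSeq start. The 3 with fewer than 10 CpG (Tex19.2, Syce3 and Mei1) had none at the span boundary either. The window of Mei1 lies at a RefSeq start 12402 bp inside the span, so its CpG count does not describe that boundary. Over all protein-coding genes the share was highest, at 6.37%, for promoters of 5 to 9 CpG, a class with 2 members and no member start region. Weighted to the members' CpG classes, protein-coding genes had a start region in 4.56% of cases and a far-end region in 7.81%. Windows of fewer than 5 CpG, which MBD2 captures poorly, numbered 1 of 33 among members and 5097 of 17492 among all genes.

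**Figure D4:**
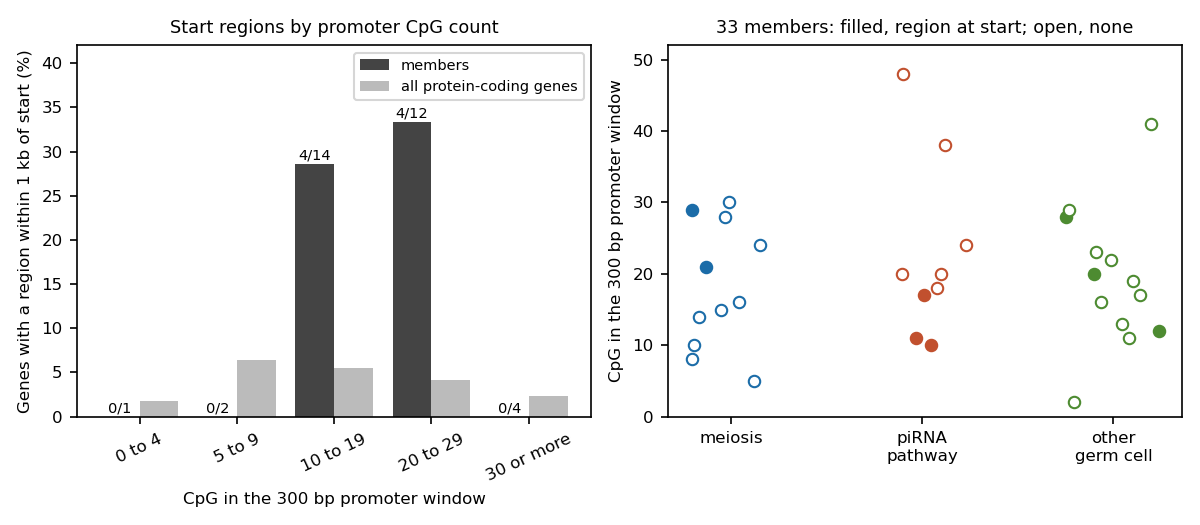
The left panel gives the percentage of members and of all protein-coding genes with a region within 1 kb of the start, by the number of CpG in the 300 bp promoter window, with member counts above the bars. The right panel shows the CpG count of each of the 33 members by group, with filled circles for the 8 with a start region, which lie between 10 and 29 CpG.

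Sequences known to be bound by the silencing complex were more frequent in member promoters than over all promoters. The E-box CACGTG, which reads the same on both strands, occurred in 14 of 33 member windows (42.4%), against 7.91% of the windows of all protein-coding genes with a strand, or 10.4% when these were weighted to the members' CpG classes. The E2F-type sequence GCGGGAA or its reverse complement TTCCCGC occurred in 10 of 33 (30.3%), against 6.01%, or 8.19% when weighted. The motifs overlapped each other in 0 member windows. Of the 8 members with a start region, 2 held the E-box (Sycp1 and Tdrd9) and 2 the E2F-type sequence (Smc1b and Tex14), whereas of the 25 others 12 and 8 did. The 25 include Stag3, whose window held both sequences and lay wholly inside a region. Some more of the 25 had a region elsewhere within 5 kb. The windows of Sycp3 and Hormad1, printed above, held 2 E-boxes and 1 E2F-type sequence each and had no region within 5 kb. A match is a description of the sequence only, and the difference between members with and without a start region was not tested.

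Among 53 further genes of the same pathways, 40 had a strand, and 4 of these (10%) had a start region, beside 24.2% of the members, a difference that was not tested. The lists differed among themselves, with a start region in 1 of 19 further meiosis genes (5.26%), 0 of 10 further piRNA genes and 3 of 11 further germ cell genes (27.3%), beside 18.2%, 33.3% and 23.1% of the members of these groups. With regions over an FDR of 5% left out, these shares were 5.26%, 0% and 18.2% in the further lists, beside 9.09%, 11.1% and 23.1% of the members. A far-end region was found for 3 of the 40 further genes with a strand (7.5%), against 6.35% of protein-coding genes. The 4 with a start region were Tex12, a central element gene (175 tags, 9.77-fold, FDR 0%), Figla, a transcription factor of oocytes (160 tags, 18.02-fold, FDR 0%), and the X-linked genes Taf7l (225 tags, 11.15-fold, FDR 0%) and Tex13b (12 tags, 29.66-fold, FDR 100%). Figla and Taf7l were named after their values were seen. Those at a far end were Tdrd7 (266 tags, 13.13-fold), Dazap1 (305 tags, 24.49-fold) and Hspa2 (336 tags, 5.83-fold), the last also named after its values were seen. Among those without a strand, Tex11, an X-linked meiotic gene, had the largest fold at an end in the meiosis list (290 tags, 19.27-fold), and Majin, which tethers telomeres to the nuclear envelope in meiosis, had 375 tags at 5.66-fold. Spocd1, which acts in piRNA-directed DNA methylation, had the largest fold in the piRNA list (61 tags, 26.73-fold), and Pnldc1, a piRNA-trimming nuclease, had 256 tags at 16.76-fold. Dppa3, a gene of oocytes and pluripotent cells, had 2 regions near an end, of 56 tags at 22.05-fold and 143 tags at 8.49-fold. Either end carried a region in 3 of 25 further meiosis genes, 4 of 14 further piRNA genes and 6 of 14 further germ cell genes, in all 13 of 53 (24.5%) against 9.64% of all protein-coding genes. Within 5 kb the count was 30 of 53 (56.6%), against 50.6% for protein-coding genes of the same lengths. The members lay in surroundings of ordinary density, with a median of 22 listed regions within 500 kb of the gene's midpoint (6 to 51), against 18 for all protein-coding genes (interquartile range 9 to 29).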

How the data were processed

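MBD-seq was done on 1 Uhrf1 cKO and 1 Control library of chondrocytes, from DNA sheared to about 300 bp. Per the file headers, the authors called regions with MACS 1.4.2, with Control as the enriched and cKO as the background library, at a p limit of 1e-10, with 1 tag kept per position. Per the submitters' processing notes, reads were placed on mm10. No source used here names the aligner. Per the file headers, each region has a count of Control tags, a score (minus 10 times the log10 of p), a fold (a ratio at the summit) and an FDR in percent. The region depth is the tag count.

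Genes came from the RefSeq table of GRCm38.p6, and strands, starts and promoter sequences from RefSeq promoter entries. All 37 symbols matched. A member's start is the strand-side boundary of its span. Every member is named: those with a region at an end with its values, others with their largest or nearest region, or the distance to it. Of further genes with a region at an end, up to 3 per list were named by fold, and 3 more after their values were seen. The members and lists were chosen with earlier results of these data known. The promoter CpG classes, the listed starts, shared regions and a minimum of 30 tags were chosen after seeing the data. The overlap rule was tested on simulated data and gave the right outcome for 600 of 600 genes. These included genes with no planted region or with one beyond 5 kb. SciPy 1.17.1 and pandas 2.3.3 under Python 3.11.15 were used, with Matplotlib 3.10.9 for figures.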

Additional observations from a re-analysis of the deposited data

How the results depend on the processing

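Of 79 alternative values for 11 results, 71 stayed within 1.5 times the main count or, for the median fold, within the order-statistic interval of 5.73 to 30.34. The others came mostly from limiting regions to an FDR of at most 5%. Under that limit 6 members had a region at an end (10 without it), 5 at the start (8), and 20 regions lay within 5 kb (38). Also under it, 3 meiosis and 5 piRNA members had a region within 5 kb, and 1 and 2 at an end. The piRNA share within 5 kb, above that of genes of the same lengths without the limit (75% against 66.5%), was below it with the limit (41.7% against 51.0%). With spans widened by 10 kb, 8 meiosis members had a region (5 with 5 kb). The far end held 0 of 33 members with an end window of 2 kb as well, against 10.5% of protein-coding genes with a strand. Narrower windows and stricter region limits could only return the 0 found with 1 kb, so they are no check of it. With an end window of 2 kb, 10 of 33 members had a start region (30.3%), against 7.69% of protein-coding genes. No paired analysis was possible because each genotype has 1 library, and no replicate could be left out. Depth limits single regions such as that of Piwil4 (12 tags).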
